A study of Homo sapiens with 3 samples.

Results

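ATF4, a transcription factor of the integrated stress response, was examined together with 9 genes that act beside or below it or that serve the unfolded protein response of the endoplasmic reticulum (ER): DDIT3, ASNS, CHAC1, TRIB3, HSPA5, XBP1, DDIT4, SESN2 and PSAT1. The genes were taken by name from the gene lists of the count files, and all 10 were found among the 58735 genes listed, each on 1 row. The measurements are RNA-seq read counts of 3 libraries of DU145, an established line of androgen-independent human prostate cancer cells. A single library is labelled control, and 2 libraries are labelled PD-L1 knockdown 1 and PD-L1 knockdown 2. PD-L1, encoded by CD274, is the surface ligand that restrains T cells through PD-1, and the study asked which other processes it affects inside tumor cells.

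According to the methods of the study, stable knockdown lines were made with lentiviral pLKO.1 hairpins under puromycin, empty pLKO.1 served as the vector control, and the libraries were poly(A)-selected. The RNA-seq section calls the knockdown cells PD-L1sh1/2, which reads as 2 hairpins, and the control simply DU145. Only 1 hairpin sequence is given, so whether both knockdown labels stand for different hairpins cannot be checked by sequence. The labels give DMEM as the medium and the methods give EMEM, the series text names the thyroid line BCPAP, and the heading of the control's counts names RBM45. The libraries are therefore called by their labels.

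When unfolded proteins, lack of amino acids, lack of heme or double-stranded RNA activate one of 4 kinases, eIF2 is phosphorylated, most translation slows, and the ATF4 message is translated better. ATF4 then induces genes for amino acid synthesis and transport, glutathione turnover and, with CHOP (the product of DDIT3), cell death. In parallel the sensors IRE1 and ATF6 induce ER chaperones, with the XBP1 message spliced by IRE1 as a step. Counts per gene show neither the phosphorylation of eIF2, nor the translation of ATF4, nor the splicing of XBP1, so the values below are levels of RNA alone.

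The 3 libraries held 14733088, 14738298 and 15786457 counts in the order control, knockdown 1 and knockdown 2, and this order is kept below. CD274 itself had 204, 213 and 224 counts, so the RNA of the targeted gene showed no decrease where the labels say PD-L1 knockdown. Its ratios to the control were 1.05 (0.861 to 1.28) and 1.03 (0.845 to 1.25). The paper checked the knockdown in DU145 as protein, by western blot, which these RNA counts do not measure. The epithelial markers KRT8, KRT18, EPCAM and CDH1 had between 755 and 19056 counts in every library. KLK3 and KLK2, genes of luminal prostate cells, had 0 counts in all 3. Among thyroid markers, FOXE1 had 645 to 738 counts, PAX8 had 13 to 29 and TG had 3 to 15. Ratios to the control are given with exact 95% counting intervals on library sizes scaled by the TMM method, and such intervals cover counting error only. Fold changes, standard errors and p-values are from edgeR's quasi-likelihood test of the 2 knockdown-labelled libraries against the control over 19849 genes. In bulk RNA, fewer cells that express a gene and less RNA per cell cannot be told apart. The control has no replicate, and nothing says that the libraries were independent cultures. The p-values therefore measure only the spread between these libraries, as estimated from the 2 labelled PD-L1 knockdown on 1 residual degree of freedom. For each gene that estimate is drawn mostly from the genes tested as a whole (46.8 prior degrees of freedom), and little from its own counts. If those 2 carry different hairpins, the spread includes that difference.

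Of the 10 genes, 0 passed an adjusted p of 0.05 in edgeR, compared with 0.0907% of all genes tested (0.0655% higher and 0.0252% lower). At an unadjusted p under 0.05 edgeR found 1 gene (PSAT1), where 11.4% of all genes tested passed. The DESeq2 Wald test found 0, where 455 of the 19849 genes passed. With the legacy quasi-likelihood method, the default of the edgeR version used, the unadjusted p was 0.0132 for PSAT1 and 0.0426 for DDIT3. Thus 2 genes passed there, and the share of all genes under that method was not worked out. The log2 fold change was above 0 for 4 genes and below 0 for 6. It ran from -0.27 for PSAT1 to 0.54 for DDIT3, with a median of -0.03 beside 0.0015 for all genes tested. For 7 of the 10 genes its size was under 0.13. The median size was 0.07, compared with 0.15 for the 10861 genes that averaged 100 counts or more, called well-counted below. DDIT3 was the gene whose counting intervals lay above 1 in both libraries labelled PD-L1 knockdown, and PSAT1 the gene whose intervals lay below 1 in both. Among all genes tested both intervals lay on one side of 1 for 19.0%, above it for 10.3% and below it for 8.69%, so 1 of 10 in each direction is near the background. Among well-counted genes the shares were 30.5% in all, 16.8% above and 13.7% below.

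**Figure D1:**
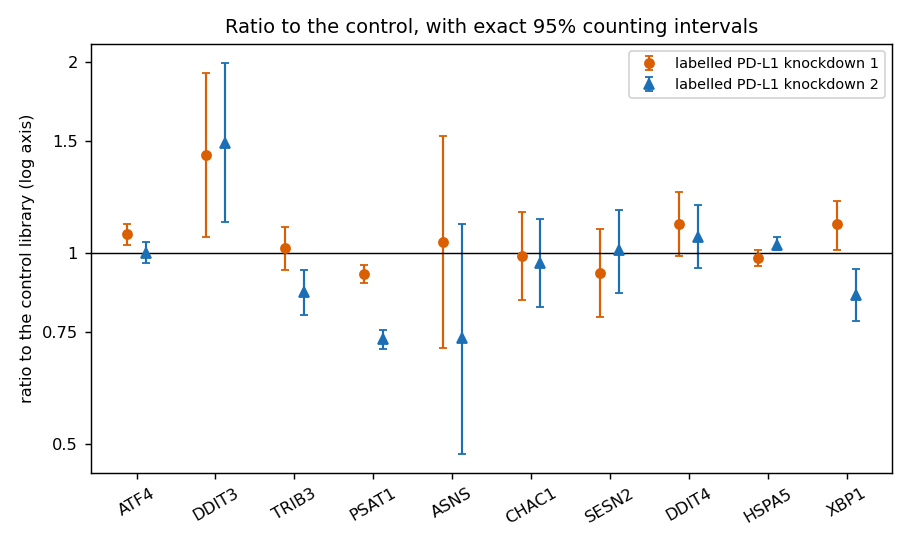
Ratio of each library labelled PD-L1 knockdown to the single control library for the 10 genes (vertical log axis; circles knockdown 1, triangles knockdown 2), with exact 95% counting intervals as bars and a line at 1. DDIT3 lies at 1.43 and 1.49 and PSAT1 at 0.926 and 0.731, while ATF4 lies at 1.07 and 1.00.

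The promoters of 4 genes hold the elements by which the pathway is usually described, and they are shown to set the arms of the pathway side by side with the values that follow. The ER stress response element, CCAAT and CCACG with 9 bases of any kind between them, is bound by ATF6 and the factor NF-Y, and the core of the composite C/EBP-ATF element, TGATGNAA, by ATF4 with C/EBP partners. Both were searched on both strands in RefSeq promoters (GRCh38.p14), from 250 bases before to 50 bases after each start. All 10 genes had a promoter there, with 16 starts in all. The ER stress element was in 27 of 35116 promoters (0.0769%) and in those of HSPA5 and XBP1. The C/EBP-ATF core was in 1270 of 35116 promoters (3.62%) and in those of ASNS and CHAC1. The other 6 genes held neither in this window, which says only that these letters are not there. Windows around each match are written 5′ to 3′ along the gene, with the match in capitals. The HSPA5 window is chr9:125241351-125241449 on the minus strand, with the match 66 to 48 bases before the start. The XBP1 window is chr22:28800570-28800661 on the minus strand, with the match 52 to 34 bases before the start. The ASNS window is chr7:97872429-97872516 on the minus strand, with the match 68 to 61 bases before the start. The CHAC1 window is chr15:40953222-40953309 on the plus strand, where the match reads on the opposite strand, 209 to 202 bases before the start.
HSPA5: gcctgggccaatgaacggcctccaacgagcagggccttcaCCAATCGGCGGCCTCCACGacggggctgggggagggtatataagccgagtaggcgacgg
XBP1: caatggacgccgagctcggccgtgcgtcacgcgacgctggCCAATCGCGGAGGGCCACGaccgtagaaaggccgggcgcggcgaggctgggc
ASNS: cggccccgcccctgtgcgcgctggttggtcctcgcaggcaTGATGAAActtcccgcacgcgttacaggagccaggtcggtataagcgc
CHAC1: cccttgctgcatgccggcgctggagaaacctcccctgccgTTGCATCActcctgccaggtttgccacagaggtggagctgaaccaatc

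The levels of the 10 genes spanned more than 2 orders of magnitude in FPKM, the deposited unit that divides counts by gene length and library size. PSAT1 had the highest mean (200 FPKM), followed by HSPA5 (170 FPKM) and ATF4 (135 FPKM). The ranges of PSAT1 (166 to 225) and HSPA5 (165 to 175) overlapped, whereas all 3 libraries of ATF4 (132 to 141) lay below those of HSPA5. TRIB3 (20.8 to 24.3), XBP1 (18.4 to 23.5) and DDIT4 (18.1 to 20.1) formed a middle group in which neighbours overlapped. CHAC1 (10.1 to 10.4) lay below them and above SESN2 (5.99 to 6.54) without overlap. DDIT3 (4.17 to 6.25) overlapped SESN2, and ASNS was lowest at 0.625 to 0.881 FPKM. As counted, the ATF4 message was thus present at a high level beside low levels of DDIT3 and ASNS, per length, in all 3 libraries. Other genes overlap 27.2% (MARS) of the exon bases of DDIT3 and 44.6% (AC079781.5) of those of ASNS, so both levels are uncertain.

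**Figure D2:**
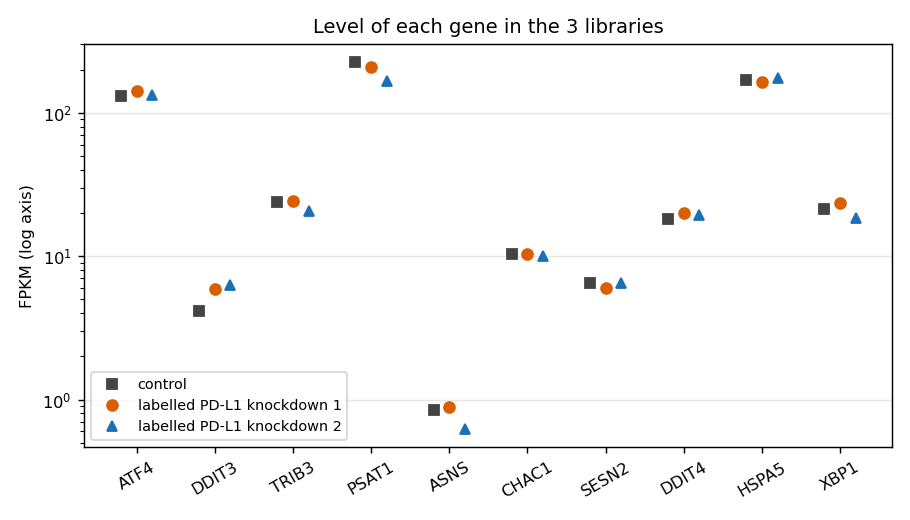
Level of each gene in FPKM on a log axis in the 3 libraries (squares control, circles knockdown 1, triangles knockdown 2). The levels run from 0.625 FPKM for ASNS to 225 FPKM for PSAT1, and the distance between genes is much larger than that between libraries of 1 gene.

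ATF4 is the central factor of the response (chromosome 22, 39519695 to 39522685, GRCh38). It had 4915 counts in the control, 5237 in knockdown 1 and 5277 in knockdown 2, which is 333, 357 and 334 CPM. Knockdown 1 was the highest library, and knockdown 2 lay at the level of the control. Its ratio was 1.07 (1.03 to 1.11) in knockdown 1 and 1.00 (0.964 to 1.04) in knockdown 2. The log2 fold change was 0.05 (SE 0.11, adjusted p = 0.895), with a 95% interval from -0.17 to 0.27, that is 0.888-fold to 1.21-fold. ATF4 shares 29.7% of its 31-base words with other genes, but the processed pseudogene that shares most, ATF4P3, had 5, 7 and 9 counts, and ATF4P4 had 7, 0 and 1.

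DDIT3 encodes CHOP, which ATF4 induces under lasting stress and which promotes cell death (chromosome 12, 57516588 to 57521737). It had 81, 115 and 129 counts, or 5.49, 7.83 and 8.17 CPM. Both libraries labelled PD-L1 knockdown were above the control and close to each other, with a ratio between them of 1.04 (0.805 to 1.35). The ratios to the control were 1.43 (1.06 to 1.92) and 1.49 (1.12 to 1.99). The log2 fold change of 0.54 (SE 0.28, adjusted p = 0.446 in edgeR) did not pass the test, and its 95% interval ran from -0.01 to 1.10. The unadjusted p was 0.0544 in edgeR. Of the 1307 exon bases of DDIT3, 355 (27.2%) overlap exons of MARS on the opposite strand and 58 overlap MBD6. MARS, the methionyl-tRNA synthetase gene, had 4982, 4980 and 5049 counts, with a log2 fold change of -0.04. MBD6 had 735, 876 and 761 counts. Whether the counting used strand is not stated, so reads of DDIT3 and of these neighbours cannot be told apart in the overlaps.

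TRIB3, a pseudokinase induced by ATF4 and CHOP that in turn restrains ATF4, had 1216, 1233 and 1129 counts. Control and knockdown 1 were at one level, 82.4 and 84.0 CPM, and knockdown 2 was lower at 71.5 CPM. The ratio was 1.02 (0.940 to 1.10) in knockdown 1 and 0.867 (0.799 to 0.941) in knockdown 2. Over both, the log2 fold change was -0.09 (SE 0.13, adjusted p = 0.837).

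PSAT1, phosphoserine aminotransferase, catalyses the middle step of serine synthesis and is a target of ATF4 (chromosome 9, 78297143 to 78330093). It had 7309, 6739 and 5724 counts, or 496, 459 and 362 CPM. Both libraries labelled PD-L1 knockdown were below the control, knockdown 1 by little and knockdown 2 by more. The ratios were 0.926 (0.896 to 0.957) and 0.731 (0.706 to 0.757), and knockdown 2 was at 0.790 (0.762 to 0.818) of knockdown 1. The log2 fold change was -0.27 (SE 0.12, adjusted p = 0.378 in edgeR), with an interval from -0.50 to -0.04, and was thus not past the adjusted threshold. The unadjusted p was 0.0228 in edgeR. Its log2 fold change was -0.11 with knockdown 1 alone and -0.45 with knockdown 2 alone. PSAT1 has 4 named pseudogenes, PSAT1P1 to PSAT1P4, and they had 0 counts in all libraries.
Of the enzymes before and after PSAT1 in the same pathway, PHGDH was highest in knockdown 1 and PSPH, like PSAT1, was highest in the control. PHGDH, which makes its substrate, had 2266, 2597 and 2441 counts, with a log2 fold change of 0.11 (SE 0.12). PSPH, which releases serine, had 877, 723 and 762 counts, with a log2 fold change of -0.29 (SE 0.14, adjusted p = 0.415 in edgeR).

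ASNS, asparagine synthetase, had only 56, 58 and 44 counts (3.80, 3.95 and 2.79 CPM). The 3 counts overlapped within counting error, with ratios of 1.04 (0.708 to 1.53) and 0.734 (0.483 to 1.11). The log2 fold change was -0.18 (SE 0.36), and at this depth its 95% interval ran from 0.533-fold to 1.46-fold. Of the 4455 exon bases of ASNS, 1985 (44.6%) are shared on the same strand with AC079781.5, a processed transcript that had 16, 9 and 24 counts. How reads on both genes were treated is not stated, so the level of ASNS is uncertain.

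CHAC1 degrades glutathione and is among the most responsive targets of ATF4 and CHOP. Its 318, 313 and 328 counts (21.6, 21.3 and 20.8 CPM) were nearly equal, with ratios of 0.989 (0.843 to 1.16) and 0.963 (0.823 to 1.13). None of its 31-base words is found in another annotated gene. The log2 fold change was -0.04, with a 95% interval from 0.764-fold to 1.25-fold.

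SESN2 and DDIT4 (REDD1) restrain mTORC1 under stress, and both are induced by ATF4 among other factors. SESN2 had 331, 306 and 357 counts, or 22.4, 20.8 and 22.6 CPM. Its ratios of 0.929 (0.792 to 1.09) and 1.01 (0.865 to 1.17) both held 1. DDIT4 had 552, 611 and 628 counts, or 37.4, 41.6 and 39.8 CPM. Both libraries labelled PD-L1 knockdown were slightly above the control, at 1.11 (0.989 to 1.25) and 1.06 (0.946 to 1.19). The fold changes were -0.05 (SE 0.17) for SESN2 and 0.12 (SE 0.15, adjusted p = 0.789) for DDIT4 on the log2 scale. An antisense gene, DDIT4-AS1, covers 41.2% of the exon bases of DDIT4 and was listed with 0 counts throughout. Whether strand was used, and how reads in this overlap were treated, is not stated, so the level of DDIT4 is uncertain too.

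HSPA5 encodes BiP, the main chaperone of the ER, whose RNA rises when the ATF6 arm is active (chromosome 9, 125234853 to 125241330). It had 9776, 9552 and 10818 counts, or 663, 650 and 685 CPM. The control lay between the other libraries. The ratios were 0.981 (0.954 to 1.01) and 1.03 (1.01 to 1.06), and the log2 fold change was 0.01 (SE 0.11, adjusted p = 0.977), with an interval from 0.868-fold to 1.17-fold. XBP1, whose message IRE1 splices, had 954, 1051 and 878 counts, or 64.7, 71.6 and 55.6 CPM. Here the libraries labelled PD-L1 knockdown lay on opposite sides of the control, at 1.11 (1.01 to 1.21) and 0.860 (0.783 to 0.943). Its log2 fold change over both was -0.03 (SE 0.14), and knockdown 2 was at 0.777 (0.709 to 0.850) of knockdown 1. HSPA5 and XBP1, which both carry the ER stress element printed above, therefore differed in the order of the libraries.

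Both libraries labelled PD-L1 knockdown were also compared with each other. The counting interval of knockdown 2 against knockdown 1 left out 1 for 5 of the 10 genes (ATF4, TRIB3, HSPA5, XBP1 and PSAT1). Of all well-counted genes, among which 9 of the 10 fall, 37.5% did so, and the genes concerned are the 5 with the most counts. PSAT1 and XBP1 differed most among these 5, both being lower in knockdown 2, and HSPA5 was the one that was higher there. Against the control, the interval left out 1 for 4 of the 10 genes in knockdown 1 (background 40.6%) and for 5 in knockdown 2 (background 56.2%).

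Outside the 10 genes, 124 other genes of the pathway were listed by role, and 122 had enough counts to be tested. Of these 122, 1 (SLC7A11) passed an adjusted p of 0.05 in edgeR, and it was lower. Among all genes tested 0.0907% passed, and 0.0252% passed and were lower. The log2 fold change was above 0 for 60 of the 122 and below 0 for 62. At an unadjusted p under 0.05 there were 14 of the 122, close to the 11.4% of all genes tested. SLC7A11, the cystine transporter that supplies glutathione synthesis and is a target of ATF4, had 2702, 2099 and 1505 counts. Its ratios were 0.780 (0.737 to 0.826) and 0.520 (0.488 to 0.554), and its log2 fold change was -0.62 (SE 0.14, adjusted p = 0.0387 in edgeR). The order of the libraries was that of PSAT1. Without knockdown 1 its log2 fold change was -0.94 and without knockdown 2 it was -0.36. In edgeR the call was lost with robust estimation of the spread (adjusted p = 0.445), with genes of at least 1 count (adjusted p = 0.66) and after removal of trends with gene length and GC content (log2 fold change -0.40, adjusted p = 0.786). The DESeq2 Wald test gave an adjusted p of 1, and the lowest of the alternatives in edgeR was 0.00025.
The other 7 amino acid transporters tested did not pass, and SLC7A3, which was not tested, had 0 counts in each library. SLC7A5, which imports leucine, had 10158, 10735 and 10808 counts and was, with AARS, nearest to ATF4 of the 114 well-counted genes listed. The distance was 0.02 for each over the log2 ratios of both libraries. SLC1A5, the glutamine transporter, was highest in its list with a log2 fold change of 0.14 (SE 0.12).

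Among the enzymes of serine, glycine and one-carbon metabolism 0 of 8 passed. ALDH1L2 was lowest at -0.34 (SE 0.17) and SHMT2, the mitochondrial serine hydroxymethyltransferase, highest at 0.21 (SE 0.12) on the log2 scale. Of 7 other amino acid enzymes 0 passed. CBS, cystathionine β-synthase, had 598, 251 and 487 counts, with a log2 fold change of -0.75 (SE 0.18, adjusted p = 0.0909 in edgeR). Without knockdown 1 CBS was at -0.39 and without knockdown 2 at -1.25. Its level is uncertain, since its near-identical copy CBSL had 78, 69 and 13 counts and reads can be split between them. ASS1, argininosuccinate synthetase, had 154, 233 and 282 counts and ratios of 1.52 and 1.71, with an adjusted p of 0.225 in edgeR. It was the nearest to DDIT3 of the 114 genes compared, at a distance of 0.22, and CRELD2 followed at 0.23. Of the 12 aminoacyl-tRNA synthetases, which ATF4 induces as a group, 0 passed, 2 lay above 0 and 10 below. Their median log2 fold change was -0.08. The lowest was NARS at -0.20 (SE 0.12) and the highest SARS at 0.16 (SE 0.12).

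Upstream, 0 of 11 sensors and kinases passed, with a median log2 fold change of -0.04. EIF2AK2 (PKR, the kinase for double-stranded RNA) was lowest, with 2452, 2150 and 2020 counts and with a log2 fold change of -0.28 (SE 0.12, adjusted p = 0.384 in edgeR). With length and GC trends removed EIF2AK2 was at -0.09. MBTPS1, the protease that cuts ATF6, was highest at 0.12 (SE 0.12). EIF2AK3 (PERK), the ER kinase, had 197, 172 and 210 counts. For eIF2, its exchange factor eIF2B and the phosphatase subunits 0 of 10 passed, from -0.11 for EIF2S3 to 0.22 for EIF2B5. Of 9 partner bZIP factors and relatives 0 passed, 7 lay above 0, and their median was 0.18. CEBPG was lowest at -0.12 (SE 0.13) and JDP2 the highest of the well-counted at 0.21 (SE 0.15).

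In the ER, 0 of 15 chaperones and folding enzymes passed, with 10 above 0, 5 below and a median of 0.10. CRELD2, a secreted ER stress protein, was highest with 375, 460 and 560 counts, with a log2 fold change of 0.39 (SE 0.16, adjusted p = 0.361 in edgeR). DNAJB9, a co-chaperone induced through XBP1, was lowest at -0.20 (SE 0.20). Of 10 genes of ER-associated degradation 0 passed; the well-counted ran from -0.16 for SEL1L to 0.14 for OS9. Of 11 translocation and traffic genes 0 passed, from -0.25 for SEC63 to 0.39 for SEC61G (SE 0.17), with a median of 0.01. SEC63 was at -0.08 with the trends removed, and SEC61G was at 0.17 without knockdown 1 and 0.59 without knockdown 2. Of 11 tested among the secreted and other targets of ATF4 or CHOP 0 passed. ERO1A, the oxidase that CHOP induces, had 2939, 2400 and 2646 counts, with a log2 fold change of -0.27 (SE 0.11, adjusted p = 0.382 in edgeR), which was -0.09 for ERO1A after removal of the length and GC trends. GADD45A was the highest well-counted gene there at 0.24 (SE 0.19), and FGF21 had 0 counts in all libraries.

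**Figure D3:**
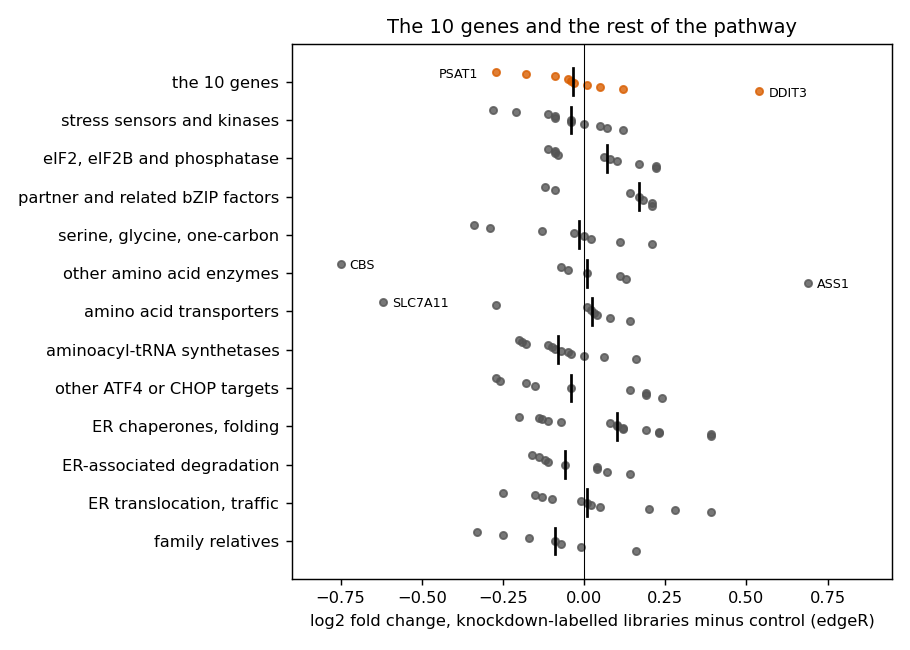
Log2 fold change (edgeR, knockdown-labelled libraries minus control) of the 10 genes, ASNS included, and of the pathway genes averaging 100 counts or more, by role; each point is a gene and each black line the median of the points shown. SLC7A11 (-0.62) and CBS (-0.75) lie farthest to the left, ASS1 (0.69) and DDIT3 (0.54) to the right, far from the medians of their lists.

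The fold changes of several genes moved with gene length and GC content. The longest transcripts of CHAC1, TRIB3, SESN2, DDIT4 and ATF4 have GC contents of 56.7% to 62.6%, and those of PSAT1, XBP1 and HSPA5 of 41.5% to 46.0%, compared with a median of 47.8% for well-counted genes. After trends with length and GC content were removed, the log2 fold change of ATF4 was -0.10, that of CHAC1 -0.27 and that of TRIB3 -0.28. For TRIB3 the unadjusted p was then 0.048 and the adjusted p 0.79 in edgeR. XBP1 moved to 0.08, DDIT4 to -0.07 and SESN2 to -0.23. DDIT3 (0.48) and PSAT1 (-0.19) kept their direction. The part of base composition in these values was not tested beyond this, and the smallest adjusted p of any of the 10 genes in any setting was 0.274, for PSAT1.

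**Figure D4:**
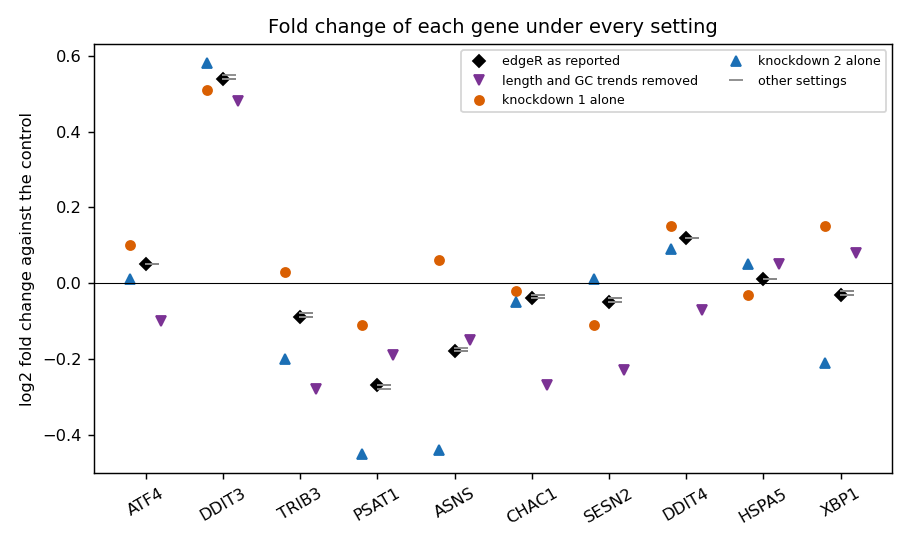
Log2 fold change of each gene against the control as reported (diamonds), after removal of length and GC trends (inverted triangles), with 1 library labelled PD-L1 knockdown alone (circles knockdown 1, triangles knockdown 2) and under the other settings (grey dashes). DDIT3 stays between 0.48 and 0.58 and PSAT1 between -0.45 and -0.11, while ATF4, XBP1 and DDIT4 change sign when the trends are removed.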

How the data were processed

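The authors deposited, for each of the 3 libraries, raw read counts per gene and FPKM. The FPKM follow from the deposited counts, the gene lengths in the files and a scale common to all genes of a library (within 0.01 counts), so FPKM were used only to compare levels between genes. The submitters' processing notes name Bowtie2 2.0.6, TopHat2 2.0.9, Cufflinks 2.1.1 and Cuffdiff 2.1.1; which made the counts, and whether strand was used, is not given in the sources used here. Gene positions are those of GENCODE release 29 (GRCh38). The 19849 genes whose counts reached a sum of 10 entered edgeR 4.0.16, run in R 4.3.3 (TMM, glmQLFit with legacy = FALSE rather than this version's default, glmQLFTest, Benjamini-Hochberg adjustment over all genes tested), on 1 residual degree of freedom, with a common dispersion of 0.00719 and 46.8 prior degrees of freedom. This gave 13 higher and 5 lower genes, and the default 49 and 21. DESeq2 1.42.0 was an alternative. In a test on simulated data of this comparison with 19385 genes, edgeR recovered 99 of 100 genes changed 2-fold and 100 of 100 changed 4-fold. It called 19 unchanged genes, and DESeq2 recovered 74 and 99 and called 0. The changed genes were drawn from those averaging 100 counts or more, and all genes were given the same dispersion. The recovery therefore does not speak for genes with fewer counts, such as ASNS, or with a larger spread. Counting intervals are exact (Clopper-Pearson) intervals of the share of 1 library in the counts of 2, at TMM-scaled sizes. For shared sequence, 31-base words of a gene were looked up in other genes' transcripts. The genes and lists were chosen with earlier results of these data known. Named outside the 10 genes were, per list, those under an adjusted p of 0.05 and the highest and lowest with a mean of at least 100 counts, the nearest genes to ATF4 and DDIT3, overlapping genes and pseudogenes; PHGDH, PSPH, EIF2AK3, SLC7A3, FGF21 and CBSL were added after their values were seen.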

Additional observations from a re-analysis of the deposited data

How the results depend on the processing

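The count of 0 among the 10 genes at an adjusted p of 0.05 was the same under all 9 other settings with a test. The count of genes with both counting intervals on one side of 1 was 2, 1 (PSAT1) at an interval level of 99% and 3 with length and GC trends removed. The share of all genes tested was worked out only for the setting as reported, where it was 19.0%. The median log2 fold change of the 10 genes moved from -0.03 to -0.13 after removal of length and GC trends; leaving out a library labelled PD-L1 knockdown gave a median from -0.02 to 0.04. Of the 122 wider pathway genes tested, 1 passed as reported; 2 passed (SLC7A11 and CBS) with DESeq2 size factors, library totals alone, upper quartile factors, at least 10 counts in every library or the legacy quasi-likelihood method, and 0 with at least 1 count summed, robust prior degrees of freedom, trends removed or the DESeq2 Wald test. Of all genes tested, 13 were higher and 5 lower as reported; the counts were 33 and 16 with DESeq2 size factors, 29 and 18 with library totals, 50 and 23 with upper quartile factors, 40 and 16 with at least 10 counts in every library, 49 and 21 with the legacy method, 13 and 4 with robust estimation, 1 and 3 with trends removed, 3 and 3 with DESeq2, and 0 and 0 with at least 1 count. Removal of the trends turned the sign of ATF4 (-0.10), XBP1 (0.08), DDIT4 (-0.07), SLC1A5 (-0.06), SEL1L (0.01), HSPA1A (-0.04), SLC7A5 (-0.15), AARS (-0.03) and MBD6 (-0.08), none of which was called. It also brought EIF2S3 to -0.01, CEBPG to -0.04, ALDH1L2 to -0.21, SHMT2 to 0.07, NARS to -0.13, DNAJB9 to -0.08 and OS9 to 0.08, each over 1.5 times smaller than reported, and MARS to -0.12 and CD274 to 0.18. The cause of these changes was not tested. No paired analysis was possible because the control is 1 library and its label gives no replicate number. Depth limits ASNS and DDIT3, with 44 to 129 counts.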

Other observations

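Relatives of the 10 genes were listed as well, and 0 of 10 passed an adjusted p of 0.05 in edgeR, with 1 at an unadjusted p under 0.05 and a median log2 fold change of -0.04. HSPA13, a microsomal relative of BiP, was lowest with 1276, 1078 and 1011 counts in the control, knockdown 1 and knockdown 2, and a log2 fold change of -0.33 (SE 0.13, adjusted p = 0.336 in edgeR), which was -0.12 after removal of length and GC trends. HSPA1A, the inducible cytosolic HSP70, was the highest well-counted relative at 0.16 (SE 0.14). The pseudogene XBP1P1 had 0, 6 and 6 counts.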
